A study of Mus musculus with 9 samples.

Results

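Described here are 7 genes of the mouse kidney cortex: Kcnip2, Aim1l, Spc25, Dgkh, Pde6a, Igf2bp1 and Fam151a. They were picked by name from the 23420 genes of the deposited table, because their levels differed strongly or very evenly between fed and fasted mice and because they have no known place in fasting metabolism. All 7 were among the 15098 genes tested, those averaging 10 or more normalized counts across the 9 libraries. Their fed and fasted levels therefore chose them. The difference between the groups is given for them as a description with no test, and there was no numerical threshold with genes just inside or outside it. Tests are given for the genes that work with them, are related to them or are the nearest tested genes on the chromosome. They are also given for how the 7 vary among mice of the same group.

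RNA of a piece of kidney cortex of about 50 mg was sequenced from male C57/BL6 mice kept on chow and a light and dark cycle. The fed group held 5 mice with free access to food (Fed 1 to Fed 5) and the fasted group 4 mice without food for 16 h (Fasted 1 to Fasted 4), with 1 library per mouse. The mice carried no stated allele, transgene or drug in either group. Age, time of collection, litter and batch are not given in the sources used here, so p-values measure the spread between these mice only. Levels are normalized counts, the reads of a gene after scaling each library by its size factor.

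The libraries held between 18902645 and 32469467 reads, and 1 read was worth between 0.744 and 1.32 normalized counts. Rn45s, a ribosomal RNA precursor, took 5.53% of the reads in Fed 3 and 2.36% in Fasted 1, and between 0.513% and 1.38% in the other libraries. Of all tested genes, 5.72% were higher and 5.25% were lower in fasted mice at an adjusted p under 0.05 (limma, Benjamini-Hochberg over all tested genes). The median difference of all tested genes, fasted minus fed, was 0.000886 on the log2 scale. The markers of the proximal tubule, the main cell of the cortex, were abundant in every library. Their summed level was 398360 to 559931 normalized counts in fed and 344784 to 403388 in fasted mice. Of 5, 1 (Slc34a1) passed (limma), lower in fasted mice, a call lost in 10 of 19 alternatives. At an unadjusted p under 0.05 (limma) there were 3, with edgeR 2 and with DESeq2 2. The median log2 difference of the 5 was -0.35, with 1 positive. None of 5 podocyte markers passed (limma; 0 at an unadjusted p under 0.05, and 0 with edgeR or DESeq2). Some markers of other cells passed as well, some higher and some lower in fasted mice. Of the fibroblast markers, Dcn and Pdgfra were higher and Col1a1 was lower after fasting among 4 tested, with sums of 4145 to 5438 in fed and 4822 to 6233 in fasted mice. Of 5 adipocyte markers, Fabp4 was higher, and the sums were 516 to 772 against 777 to 1110. Plin1 passed too, but it was at 0 to 1.84 in fed mice and reached the minimum mean through fasted mice (70.7 in Fasted 2, and 1.92 to 10.7 in the others). Cfd was at 21.3 in Fasted 4 and at 0.921 to 5.26 elsewhere, while Adipoq lay between 0 and 2.79 in all 9 libraries and Lep was at 0 in every fasted one. Of 4 intercalated cell markers, Slc4a1 and Foxi1 were lower, with sums of 4729 to 5799 against 4436 to 4928. Of 4 endothelial markers, Pecam1 was higher and Kdr was lower, with sums of 7391 to 8332 against 7531 to 8056. Of 3 distal convoluted tubule markers, Trpm6 was higher, while Slc12a3 and Pvalb had log2 differences of -0.06 and -0.39 and did not pass. The sums were 26489.5 to 35846 against 26466 to 32882. No tested marker of collecting duct principal cells, thick ascending limb, inner medulla and thin limb, smooth muscle or macrophages passed (limma). With edgeR or DESeq2 there were 0, and 1 principal cell and 1 macrophage marker had an unadjusted p under 0.05 (limma). None of 5 hepatocyte markers passed (limma; 1 at an unadjusted p under 0.05, and 0 with edgeR or DESeq2), but their sums ran from 1793 to 14989 in fed mice, highest in Fed 2, and from 3967 to 10692 in fasted mice. Their part in the results that follow was not tested.

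The 7 genes do unlike jobs. Kcnip2 encodes KChIP2, a calcium-binding partner of Kv4 potassium channels best known from heart muscle. Spc25 encodes a subunit of the NDC80 complex, which ties chromosomes to spindle microtubules in dividing cells. Dgkh encodes diacylglycerol kinase eta, which turns the lipid messenger diacylglycerol into phosphatidic acid. Pde6a encodes the alpha subunit of the cyclic GMP phosphodiesterase of rod photoreceptors. Igf2bp1 encodes an RNA-binding protein of embryonic tissue that regulates the stability and translation of mRNAs. Aim1l (now Crybg2) encodes a protein with the beta-gamma crystallin fold, and Fam151a a membrane protein of little known function.

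After fasting, 4 of the genes were higher and 3 were lower. In none of the 7 did the values of the fed and fasted mice overlap. Over all tested genes, 7.62% were higher in fasted mice without overlap and 6.64% were lower without overlap, but nothing can be read from the 7 of 7, since this contrast chose them. By size of the log2 difference they ranked from place 15 (Aim1l) and 19 (Kcnip2) to place 231 (Dgkh) and 295 (Spc25) of the 15098. In bulk tissue, fewer cells of a type and less RNA per cell cannot be told apart.

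**Figure D1:**
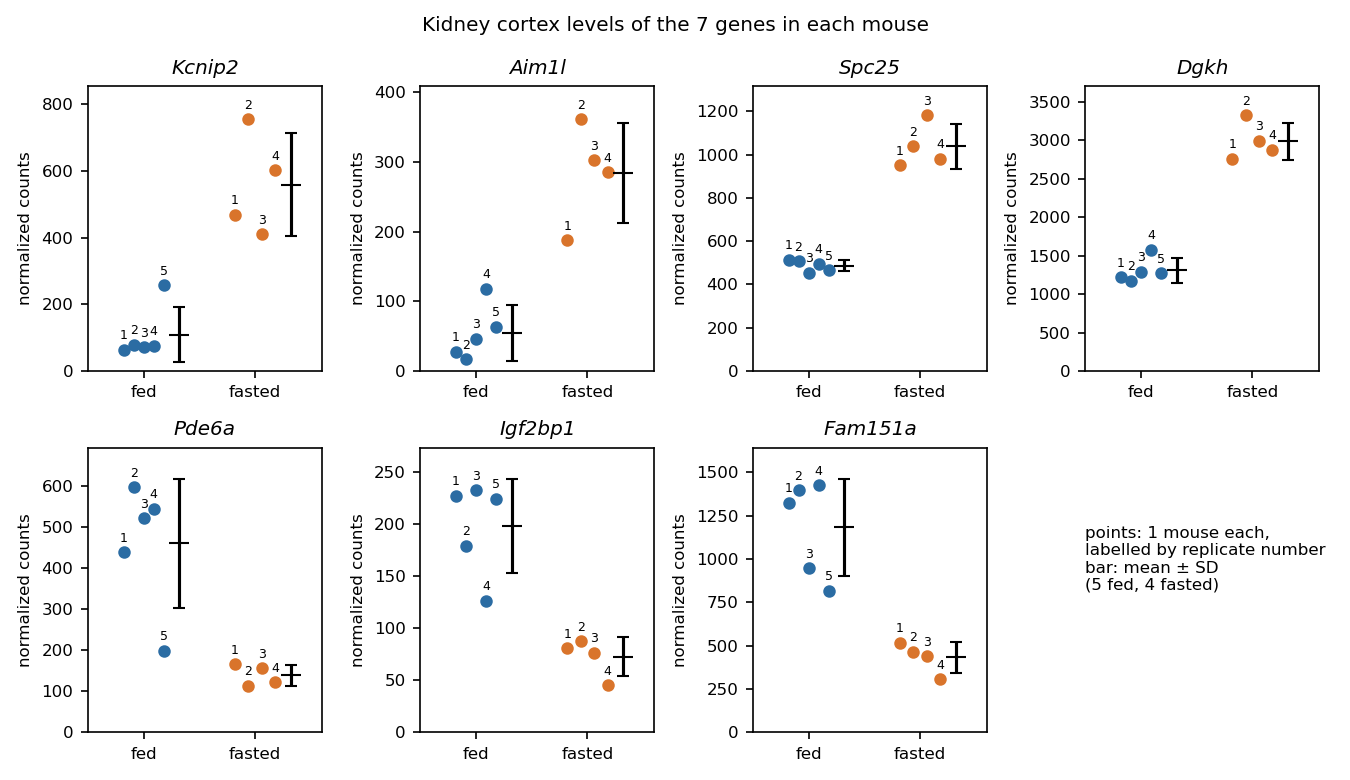
Normalized counts of each of the 7 genes in every mouse on a linear axis from 0, fed mice beside fasted mice, 1 point per mouse with its replicate number and a bar for the mean ± SD. The fed and fasted points do not overlap in any panel, and Fed 5 lies nearest to the fasted mice for Kcnip2 (257), Pde6a (199) and Fam151a (817).

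Kcnip2 had 63.3, 79.2, 71.0, 75.2 and 257 normalized counts in Fed 1 to Fed 5, and 468, 755, 410.5 and 602 in Fasted 1 to Fasted 4. Fed 1 to Fed 4 lay close together, Fed 5 was well above them, and every fasted mouse was above Fed 5. The means were 109 ± 82.7 (SD, n = 5) and 559 ± 153 (SD, n = 4), a log2 difference of 2.54 (SE 0.36), and 2.90 without Fed 5. The gene lies at chr19:45791839-45816061 on the minus strand of GRCm38 (the mm10 build), with 3476 exonic bases in 11 exon blocks of the GENCODE M21 annotation.

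Kv4 channels are built from pore subunits (Kcnd1 to Kcnd3) and are joined by KChIP proteins and by single-pass or peptidase-like partners. The list of 14 genes was drawn from these and also held the potassium channel beta subunit genes Kcnab1 and Kcnab2. Of the 14, 6 were below the minimum mean, including the pore genes Kcnd1 (mean 6.16) and Kcnd2 (mean 4.98) and the relative Kcnip1 (mean 1.17). Of the 8 tested, none was higher and 1 was lower after fasting, with a median log2 difference of -0.15. The one past the test was Kcnab2, which encodes a potassium channel beta subunit. It had 139.9, 150.1, 145, 143 and 69.6 in the fed mice and 57.7, 56.6, 59.5 and 77.4 in the fasted mice. Fed 5 lay inside the fasted range and the other 4 fed mice lay above it. Kcnab2 fell by 0.99 on the log2 scale (limma adjusted p = 0.0176). It no longer passed when Fasted 1 or the 2 libraries highest in Rn45s were left out (limma adjusted p of at most 0.0811 over the alternatives).

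The remaining tested genes of this list did not pass. Kcnd3, the one measurable pore gene, had 295 ± 61.3 (SD, n = 5) in fed and 223 ± 36.5 (SD, n = 4) in fasted mice (limma adjusted p = 0.156). Per kb of exon, Kcnip2 was 1.02 times Kcnd3 in fed mice and 6.90 times Kcnd3 in fasted mice, as ratios of means. Kcnip3, a relative of Kcnip2, had 63.6 ± 18.6 and 101 ± 16.1 (limma adjusted p = 0.0686), with 0.0319 to 0.180 over the alternatives, and it passed without Fed 5 and with DESeq2. Kcnip4 had an adjusted p of 0.333 (limma).

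Upstream sequences are printed from the RefSeq table of promoter windows (GRCm38.p6), of which the windows of 5 of the 7 genes were used. Each window runs from 250 bases before to 50 bases after the start, and 7 motifs were searched on both strands in all 32851 windows. They were the CCAAT box (CCAAT, in 37.4% of windows), the GC box (GGGCGG, 35.7%), the E-box (CACGTG, 7.15%), a cell cycle homology region (TTTGAA, 17.9%), a forkhead site (GTAAACA, 3.65%), a cyclic AMP response element (TGACGTCA, 1.79%) and a direct repeat bound by nuclear receptors (AGGTCA, 1 base of any kind, then AGGTCA again, 0.0396%). No match printed or named here overlapped another. Only the 120 bases before the start are shown, 5′ to 3′, with matches in capitals, and a match describes letters, not a bound site. For Kcnip2, at chr19:45816064-45816183 on the minus strand, the sequence is shown because the gene had one of the largest differences of the 7. It holds 1 CCAAT box, starting at position -69, and 2 GC boxes, at -87 and -17, both kinds being frequent among all windows.
Kcnip2: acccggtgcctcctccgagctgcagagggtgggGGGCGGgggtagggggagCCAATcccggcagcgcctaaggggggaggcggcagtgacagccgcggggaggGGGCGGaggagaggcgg

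Aim1l had 27.5, 16.6, 46.0, 118 and 63.7 normalized counts in Fed 1 to Fed 5, and 188, 361, 302 and 285 in Fasted 1 to Fasted 4. The fed mice were scattered, with Fed 4 highest, and all fasted mice lay above Fed 4. The means were 54.4 ± 39.9 (SD, n = 5) and 284 ± 72.0 (SD, n = 4), a log2 difference of 2.63 (SE 0.46). Its fed values had a coefficient of variation of 73.4%, close to the 75.8% of Kcnip2 and far from the 5.39% of Spc25. The gene lies at chr4:134060815-134092504 on the plus strand, with 7801 exonic bases in 22 blocks. None of the 7 motifs occurred in its promoter window. The 120 bases before the start of that window lie at chr4:134068332-134068451, inside the gene as placed above. The bases before 134060815 were not searched for this gene.

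The crystallin fold is named for lens proteins but also occurs in large proteins outside the lens. Of 16 such genes, 7 were listed at 0 in every library and 12 in all were below the minimum mean. The lens crystallins Cryba1 (mean 27.2) and Crybb3 (mean 10.3) were just high enough to be tested and did not pass (limma adjusted p = 0.502 and 0.960). Of the 4 tested, 1 was higher and none was lower after fasting, with a median log2 difference of 0.22. Aim1 (now Crybg1), the nearest relative of Aim1l, had 1241, 1234, 1206, 1225 and 1246 in fed mice and 1609, 1747, 1519 and 1617 in fasted mice. The fed values were very close together and all fasted values were above them, with a log2 difference of 0.40 (SE 0.06, limma adjusted p = 0.0018). Crybg3 had 922 ± 20.3 (SD, n = 5) and 1047 ± 16.4 (SD, n = 4), with a limma adjusted p of 0.0514. Over the alternatives, edgeR and DESeq2 among them, the adjusted p ranged from 0.0176 to 0.147, passing in 3 of 19.

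Spc25 had 514, 506, 454, 496 and 465 normalized counts in Fed 1 to Fed 5, and 951, 1039.9, 1184 and 981 in Fasted 1 to Fasted 4. Its fed values were the tightest of the 7 genes, and the lowest fasted mouse was 1.85 times the highest fed mouse. The means were 487 ± 26.3 (SD, n = 5) and 1039 ± 103 (SD, n = 4), a log2 difference of 1.09 (SE 0.08). The gene lies at chr2:69193895-69206194 on the minus strand, with 3188 exonic bases in 7 blocks.

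The NDC80 complex holds 4 subunits, the proteins NDC80, NUF2, SPC24 and SPC25, and is built as a whole in dividing cells. Ndc80 averaged 13.6 in the fed and 12.0 in the fasted group (limma adjusted p = 0.731), and Nuf2 had 11.2 and 12.6 (limma adjusted p = 0.770). Spc24, whose protein pairs directly with SPC25, had 62.5, 65.4, 44.7, 60.1 and 77.6 in fed mice and 79.1, 112, 71.9 and 107 in fasted mice. Its groups overlapped at Fed 5 and Fasted 3, and its limma adjusted p was 0.0821. Over the alternatives, edgeR and DESeq2 among them, the adjusted p ranged from 0.0458 to 0.222, passing with DESeq2. Per kb of exon in fed mice, Spc25 was at 153, Spc24 at 24.1, Ndc80 at 2.10 and Nuf2 at 1.76 normalized counts. Spc25 was thus 72.8 times Ndc80 in fed mice and 176 times Ndc80 in fasted mice. The per-mouse ratios were 55.4 to 106 and 139 to 235, which restates the levels of Spc25 that chose it, since Ndc80 hardly moved.

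Other genes of the kinetochore and the cell cycle were read from the same fit. Of 18 kinetochore genes tested, 0 passed (limma), with a median log2 difference of -0.03. At an unadjusted p under 0.05 there were 3, with edgeR 0 and with DESeq2 1. Of 21 proliferation genes, 1 was higher and 1 was lower, a share close to the 5.72% and 5.25% of all tested genes. Tyms, which makes thymidylate for DNA, was higher by 0.38 on the log2 scale (limma adjusted p = 0.0223). Over the alternatives of limma, edgeR and DESeq2 its adjusted p ranged from 0.00357 to 0.0890. The Tyms call was lost without the 2 libraries highest in Rn45s and without Fed 2, Fasted 1 or Fasted 4. Mcm6, a subunit of the replicative helicase, fell by 0.55 (limma adjusted p = 0.0095). Mki67, the usual label of cycling cells, had 233 ± 76.6 (SD, n = 5) and 212 ± 40.9 (SD, n = 4) with an adjusted p of 0.853 (limma).

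The promoters of 3 subunit genes are shown because the genes encode parts of one complex and their levels differed. The Spc25 sequence is chr2:69206214-69206333, that of Ndc80 chr17:71526858-71526977 and that of Nuf2 chr1:169531465-169531584, all on the minus strand. Spc25 held 2 CCAAT boxes, at -55 and -23, and its whole window also held a GC box at -1 and a cell cycle homology region at position 25 after the start. Ndc80 held the latter too, at position 30 after the start. Neither Ndc80 nor Nuf2 had a CCAAT box anywhere in its window. Ndc80 had 4 GC boxes in its window, the one at -46 among the bases shown, and a cyclic AMP response element at position 1 after the start. Nuf2 had no match in the bases shown but a forkhead site at -171 in its window.
Spc25: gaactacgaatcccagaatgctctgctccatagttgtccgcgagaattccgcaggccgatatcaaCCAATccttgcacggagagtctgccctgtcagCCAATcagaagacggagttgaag
Ndc80: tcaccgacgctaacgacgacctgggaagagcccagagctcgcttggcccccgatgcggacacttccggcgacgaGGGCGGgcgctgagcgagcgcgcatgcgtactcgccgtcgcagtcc
Nuf2: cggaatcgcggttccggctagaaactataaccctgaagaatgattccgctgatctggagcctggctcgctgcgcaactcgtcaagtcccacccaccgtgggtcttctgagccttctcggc

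Dgkh had 1224, 1173, 1293, 1577 and 1274 normalized counts in Fed 1 to Fed 5, and 2761, 3325, 2994 and 2877 in Fasted 1 to Fasted 4. Fed 4 was the highest fed mouse, and the lowest fasted mouse was 1.75 times Fed 4. The means were 1308 ± 158 (SD, n = 5) and 2989.6 ± 243 (SD, n = 4), a log2 difference of 1.20 (SE 0.09). The gene lies at chr14:78558750-78732776 on the minus strand and has the longest exon union of the 7, with 16975 bases in 35 blocks.

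Diacylglycerol is released by phospholipase C, activates protein kinase C and is removed by diacylglycerol kinases. Of 25 genes of this route, 24 were tested, of which 4 were higher and 4 were lower after fasting, with a median log2 difference of -0.05. Among the other kinases, Dgki had 31.3, 13.8, 27.6, 29.0 and 10.9 in fed mice and 3.72, 3.86, 0.959 and 2.67 in fasted mice. Every fasted value was under the lowest fed value. Dgki is counted among the 4 lower genes, but it stood at a few reads per fasted library and reached the minimum mean only through the fed mice, so its call is no evidence of its own. Dgkz fell by 0.28 on the log2 scale (limma adjusted p = 0.0098). Dgkd, the closest relative of Dgkh, had 3675 ± 214 (SD, n = 5) and 3342 ± 243 (SD, n = 4). It did not pass (adjusted p of 0.169 to 0.447 over the alternatives of limma, edgeR and DESeq2), nor did Dgka.

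Upstream of the kinases, Plcg1, a phospholipase C driven by tyrosine kinases, was higher by 0.47 on the log2 scale (limma adjusted p = 0.0042). Plcb4 was higher by 0.30, with a limma adjusted p of 0.0322 that ran up to 0.108 and was lost in 8 of 19 alternatives. Plcb1, a phospholipase C driven by G proteins, fell by 0.47 (limma adjusted p = 0.0145), a call lost without Fasted 4 and without the 2 libraries highest in Rn45s (up to 0.0723). Downstream, the protein kinase C gene Prkch was higher by 0.35 (limma adjusted p = 0.0089) and Prkcz fell by 0.36 (limma adjusted p = 0.0047). Cds2, which uses the phosphatidic acid that diacylglycerol kinases make, was higher by 0.25 (limma adjusted p = 0.0424), a call lost in 10 of 19 alternatives (up to 0.140). Dgkz, Plcb4, Plcb1 and Cds2, and Mki67 above, were chosen for mention after their values were seen.

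Dgkh has 3 starts in the promoter table, and counts per gene cannot say which was used; the 2 with a match in the 120 bases before the start are shown. The outermost lies at chr14:78732730-78732849 and an inner one at chr14:78629291-78629410, both on the minus strand. The outermost held GC boxes at -106 and -49 in the bases shown and an E-box at -150 before them, and the inner one held an E-box at -49. The start between them, with its upstream bases at chr14:78644452-78644571, held only a CCAAT box at -204. The E-box occurs in 7.15% of all windows and the GC box in 35.7%.
Dgkh outermost: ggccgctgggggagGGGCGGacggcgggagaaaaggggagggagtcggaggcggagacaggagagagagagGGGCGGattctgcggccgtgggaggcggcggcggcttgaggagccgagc
Dgkh inner: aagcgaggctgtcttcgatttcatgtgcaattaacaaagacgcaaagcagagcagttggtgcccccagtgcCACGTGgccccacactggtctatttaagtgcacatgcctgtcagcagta

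Pde6a had 438, 597, 521, 544 and 199 normalized counts in Fed 1 to Fed 5, and 166, 113, 156 and 122 in Fasted 1 to Fasted 4. Fed 5 was far below the other fed mice and only 1.20 times the highest fasted mouse, the narrowest gap of the 7 genes. The means were 459.7 ± 157 (SD, n = 5) and 139 ± 25.6 (SD, n = 4), a log2 difference of -1.64 (SE 0.28), and -1.92 without Fed 5. The gene lies on chromosome 18, plus strand, with 4688 exonic bases in 23 blocks.

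In rods, the alpha subunit works as a dimer with the beta subunit encoded by Pde6b, held inactive by the gamma subunit encoded by Pde6g. Pde6b had 21.9 ± 8.37 (SD, n = 5) and 16.8 ± 3.02 (SD, n = 4) normalized counts (limma adjusted p = 0.612), and Pde6g was below the minimum mean (6.48). Per kb of exon in fed mice, Pde6a was at 98.1, Pde6b at 4.36 and Pde6g at 3.28, so that Pde6a was 22.5 times Pde6b. In fasted mice the ratio of Pde6a to Pde6b was 8.90. Neuron and retina markers were near 0 throughout, with a sum over 5 genes of 48.7 to 69.6 in fed and 40.01 to 54.9 in fasted mice, and Snap25 at 0 in every fasted library. None of the 3 of them tested passed (limma; 1 at an unadjusted p under 0.05, and 0 with edgeR or DESeq2).

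Of 23 tested phosphodiesterase and cyclic GMP genes, 2 were higher and 2 were lower after fasting, with a median log2 difference of 0.06. Npr3, the clearance receptor for natriuretic peptides, fell by 0.75 on the log2 scale (limma adjusted p = 0.0009). Pde2a, a cyclic GMP-stimulated phosphodiesterase, was higher by 0.56 (limma adjusted p = 0.0019). Gnat1, the rod transducin alpha subunit, had 12.7, 23.9, 30.3, 26.8 and 10.9 in fed mice and 56.7, 108, 52.8 and 48.9 in fasted mice. All fasted values of Gnat1 were above the fed values, and the log2 difference was 1.65 (limma adjusted p = 0.0119), opposite in sign to Pde6a. Pde6d, which carries prenylated proteins in many tissues, fell by 0.37 (limma adjusted p = 0.0216), a call lost without Fed 1, without Fasted 4 and without the 2 libraries highest in Rn45s (up to 0.0760).

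Igf2bp1 had 228, 179.5, 233, 127 and 225 normalized counts in Fed 1 to Fed 5, and 80.9, 87.4, 76.7 and 45.3 in Fasted 1 to Fasted 4. Fed 4 was the lowest fed mouse and Fasted 4 the lowest of all, and the lowest fed mouse was 1.45 times the highest fasted mouse. The means were 198 ± 45.4 (SD, n = 5) and 72.6 ± 18.7 (SD, n = 4), a log2 difference of -1.44 (SE 0.23). The gene lies at chr11:95957163-96005940 on the minus strand, with 9682 exonic bases in 17 blocks.

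The family has 3 members that bind overlapping sets of mRNAs. Igf2bp2 had 185, 189, 269.7, 168 and 197 in fed mice and 309, 338, 359.7 and 289 in fasted mice. Fed 3 was the highest fed mouse, and every fasted mouse was above it. The log2 difference of Igf2bp2 was 0.70 (SE 0.14, limma adjusted p = 0.0089), opposite in sign to Igf2bp1. Igf2bp3 had 139 ± 14.95 (SD, n = 5) and 154 ± 17.3 (SD, n = 4) and did not pass (limma adjusted p = 0.457). Per kb of exon, Igf2bp1 was 0.752 times Igf2bp2 in fed mice and 0.171 times Igf2bp2 in fasted mice. These ratios carry the levels of Igf2bp1 that chose it.

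Of 8 tested relatives and mRNAs known to be bound by the family, Igf2bp2 was higher and Actb was lower. Actb, which encodes beta-actin and is a classic mRNA target of the protein, fell from 22424 ± 2803 (SD, n = 5) to 13146 ± 973 (SD, n = 4), a log2 difference of -0.76 (limma adjusted p = 0.0009). The median of the 8 was 0.00225. Lin28b was listed at 0, and H19, Lin28a, Hmga1 and Hmga2, other genes of the embryonic program, were below the minimum mean.

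Fam151a had 1325, 1398, 947, 1427 and 817 normalized counts in Fed 1 to Fed 5, and 518, 465, 441 and 309 in Fasted 1 to Fasted 4. Fed 3 and Fed 5 were the lower fed mice, and Fed 5 was 1.58 times the highest fasted mouse. The means were 1183 ± 281 (SD, n = 5) and 433 ± 89.1 (SD, n = 4), a log2 difference of -1.44 (SE 0.19), and -1.56 without Fed 5. The gene lies at chr4:106733889-106748292 on the plus strand, with 1923 exonic bases in 8 blocks. Its promoter window held 1 CCAAT box, at -217.

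Fam151b, its one relative in the genome's naming, had 185 ± 20.8 (SD, n = 5) and 195 ± 11.8 (SD, n = 4) and did not pass (limma adjusted p = 0.646). Of 17 tested genes of that relative and of proximal tubule function, 1 was higher and 1 was lower, with a median log2 difference of -0.09. Slc13a3, a dicarboxylate carrier, was higher by 0.41 (limma adjusted p = 0.0237, up to 0.0677 over the alternatives), and the call was lost without Fed 1 or without Fasted 3. Slc34a1, the main phosphate carrier of the proximal tubule, fell by 0.58 (limma adjusted p = 0.0377, up to 0.117). That call was lost in 10 of 19 alternatives, among them leaving out any library but Fed 5.

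Acot11 and Heatr8 overlap Fam151a on the opposite strand. The exons of Acot11, a thioesterase gene, cover 1263 of its 1923 exonic bases (65.7%), while Heatr8 (Mroh7 in the annotation) shares none. Whether reads were counted by strand is not given in the sources used here, so reads of the shared bases cannot be told apart between Fam151a and Acot11. Acot11 had 951 ± 79.6 (SD, n = 5) and 961 ± 105 (SD, n = 4), a log2 difference of 0.01 (limma adjusted p = 0.952). Heatr8 had 284, 342, 467, 401 and 422 in fed mice and 231, 189, 219.6 and 179.6 in fasted mice. Every fasted value of Heatr8 was below the fed values, and the log2 difference was -0.89 (limma adjusted p = 0.0038), of the same sign as Fam151a.

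**Figure D2:**
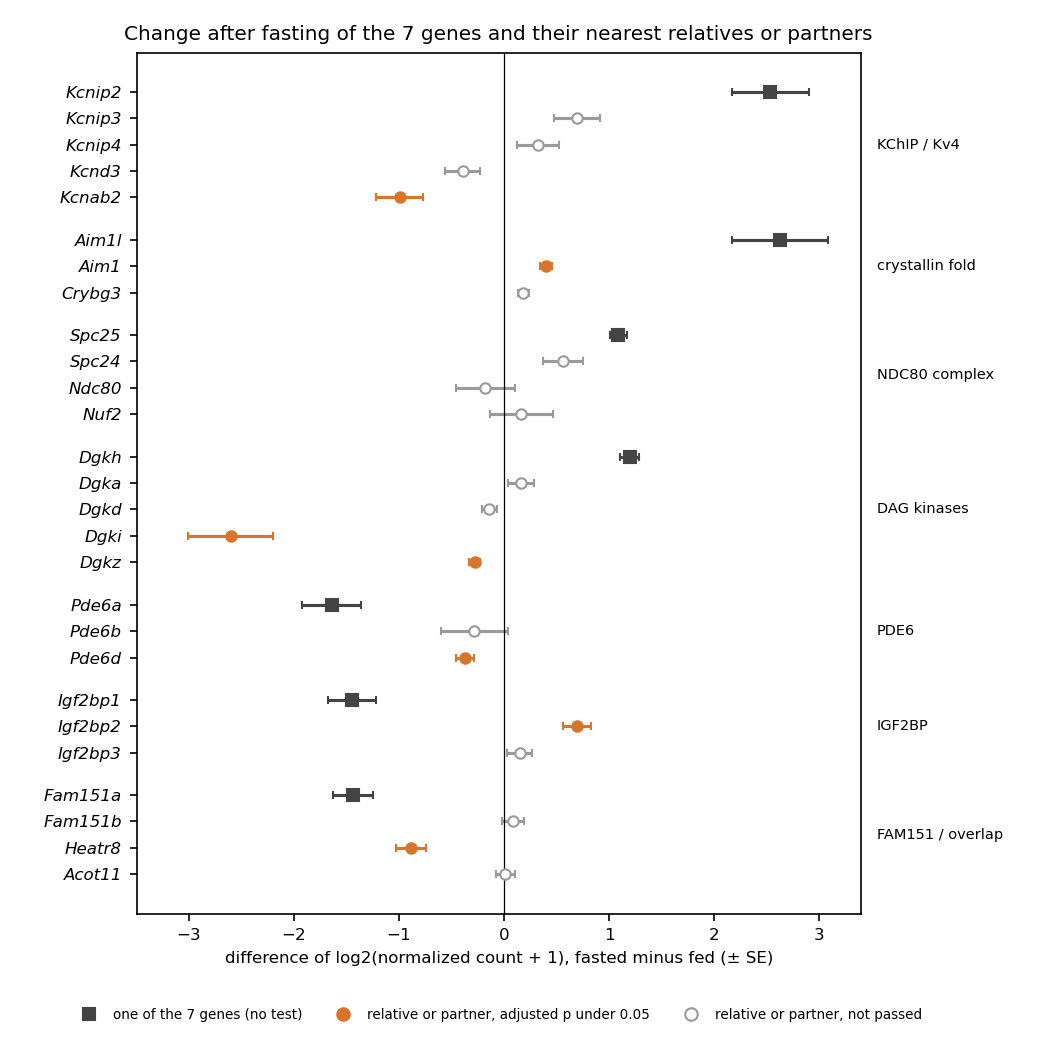
Difference of log2(normalized count + 1), fasted minus fed, with its standard error, for the 7 genes (squares) and their closest relatives, partners or overlapping genes (circles), filled where the limma adjusted p was under 0.05. Igf2bp2 (0.70) lies on the other side of 0 from Igf2bp1 (-1.44), while Ndc80 and Nuf2 lie near 0.

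Across all lists, 123 different relatives and partners were tested and 20 passed (16.3%), 10 higher and 10 lower, beside 5.72% higher and 5.25% lower of all tested genes. Their median log2 difference was -0.03. These lists were chosen with earlier results known, so nothing particular to them is read from the share. Over the alternatives the count lay between 14 and 28. The genomic neighbours were the nearest tested gene on each side by its start, and any tested gene that overlaps 1 of the 7. Untested genes can lie between. Of 14 such neighbours, 4 passed, 1 higher and 3 lower, and 3 to 5 over the alternatives. Vwa8, 116329 bases from Dgkh, rose by 0.55 on the log2 scale (limma adjusted p = 0.000666), from 12374 ± 791 (SD, n = 5) to 18069.5 ± 312 (SD, n = 4). Besides Heatr8, Dhdds, which elongates dolichol precursors and lies 59774 bases from Aim1l, fell by 0.45 (limma adjusted p = 0.0086). Slc26a2, a sulfate carrier 8878 bases from Pde6a, fell by 0.36 (limma adjusted p = 0.0229). The Slc26a2 call was lost without Fed 1, Fasted 1 or Fasted 4 and without the 2 libraries highest in Rn45s (up to 0.0821). Vwa8 was of the same sign as Dgkh and Slc26a2 of the same sign as Pde6a, whereas Dhdds and Aim1l had opposite signs. Any link between neighbours was not tested.

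The levels of the 7 genes per kb of exon spread widely. In fed mice the order was Fam151a (615), Spc25 (153), Pde6a (98.1), Dgkh (77.1), Kcnip2 (31.4), Igf2bp1 (20.5) and Aim1l (6.97 normalized counts per kb). Among neighbours in this order, Pde6a (SD 33.4) and Dgkh (SD 9.28) differed by less than their summed SDs, as did Kcnip2 (SD 23.8) and Igf2bp1 (SD 4.69). In fasted mice the order was Spc25 (326), Fam151a (225), Dgkh (176), Kcnip2 (161), Aim1l (36.4), Pde6a (29.7) and Igf2bp1 (7.50). There Fam151a (SD 46.4) and Dgkh (SD 14.3), Dgkh and Kcnip2 (SD 44.1), and Aim1l (SD 9.22) and Pde6a (SD 5.47) differed by less than their summed SDs, and so did Fam151a and Kcnip2, which are not neighbours. Kcnip2 and Aim1l moved up from low levels, and Fam151a gave up its first place to Spc25. The level of Fam151a per kb, and so its place, is uncertain, since 1263 of its 1923 exonic bases are shared with Acot11.

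**Figure D3:**
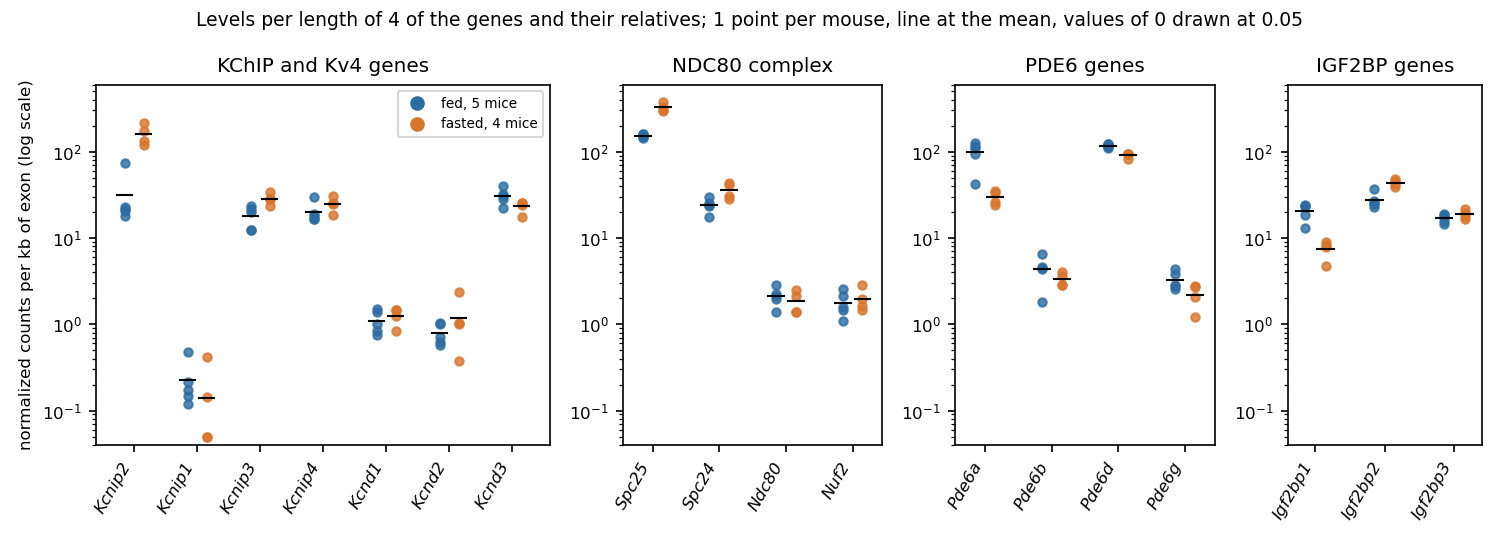
Normalized counts per kb of exon on a log axis for Kcnip2, Spc25, Pde6a and Igf2bp1 beside their complex partners or relatives, with 1 point per mouse and a line at each group mean (a value of 0 is drawn at the foot of the axis). Spc25 (153 in fed mice) stands far above Ndc80 (2.10) and Nuf2 (1.76), and Pde6a (98.1) far above Pde6b (4.36).

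Fed 5 stood between the groups for some of the 7 genes and not for others. Its place was measured on the log2 scale from 0, the mean of the other fed mice, to 1, the mean of the fasted mice, a measure chosen after the values were seen. Its place was 0.63 for Kcnip2, 0.72 for Pde6a and 0.40 for Fam151a. For Aim1l the place was 0.24, but Fed 5 (63.7) lay within the other fed mice (16.6 to 118). Its place was -0.07 for Spc25, -0.03 for Dgkh and -0.19 for Igf2bp1, also within the other fed mice. Among genes known to respond to fasting, its place was 0.66 for Cyp4a14, 0.54 for Cyp4a10 and 0.27 for Plin5, but -0.30 for Pdk4 and -0.47 for Angptl4. Over the 1959 genes called when Fed 5 was left out, its median place was 0.37, against -0.11 to 0.18 for the other fed mice, each over the genes called without it. Fed 4 stood apart for other genes, at 0.59 for Aim1l and 0.48 for Igf2bp1.

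**Figure D4:**
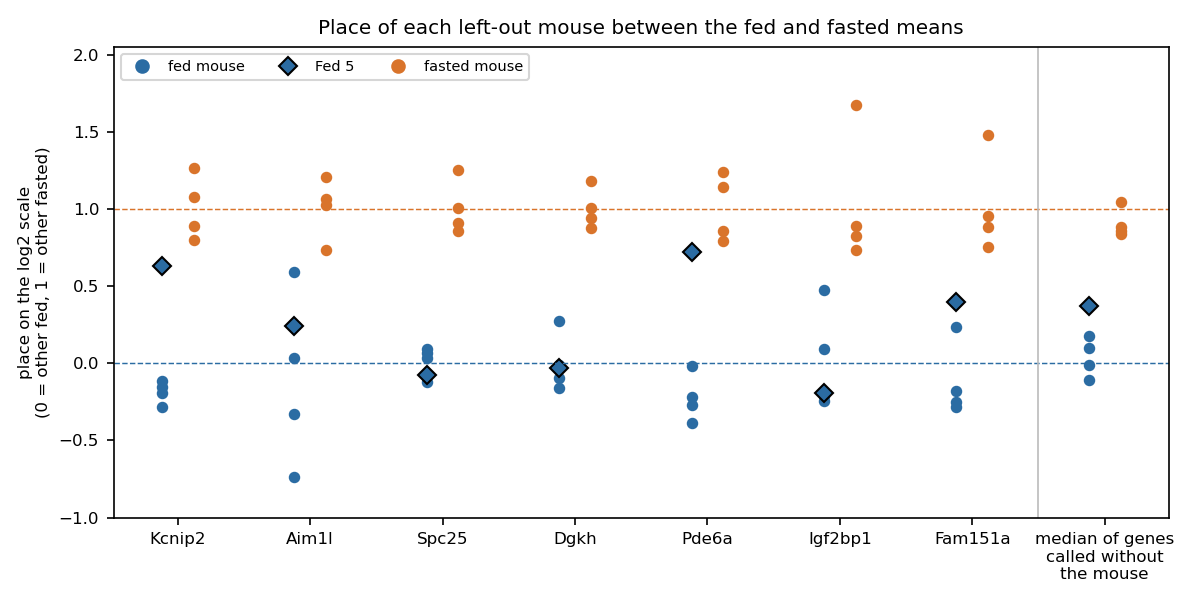
Place of each mouse between the mean of the other fed mice (0) and that of the other fasted mice (1) on the log2 scale, for the 7 genes and as the median over the genes called without that mouse, 1 point per mouse. Fed 5 lies at 0.63 for Kcnip2 and 0.72 for Pde6a but near 0 for Spc25 (-0.07) and Dgkh (-0.03).

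Variation among mice of the same group does not use the difference between the group means. Its size did enter the choice, since genes that differed very evenly were among those picked, so the pairs are not fully independent of it. After each group was centred on its own mean, 28 pairs (21 among the 7 genes, and each gene with a mean over known fasting genes) were compared over 9 mice by exact two-sided permutation within groups. One pair passed after Benjamini-Hochberg adjustment over the 28, and 4 had an unadjusted p under 0.05. It was Dgkh with Aim1l, with Pearson r = 0.88 (exact permutation p = 0.00174, adjusted 0.0486) and Spearman rho = 0.88 (p = 0.00556, adjusted 0.156). Without Fed 2 and Fed 4, the mice farthest from the median of Aim1l, r was 0.69 (exact permutation p = 0.0486). With those 7 mice there are 144 arrangements, and the smallest adjusted p a single pair could reach over the 28 is 0.194, so the adjusted test could not pass there.

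Pde6a and Kcnip2 had the strongest r, -0.92 (exact permutation p = 0.0319, adjusted 0.297), with rho = -0.52 (p = 0.179), but r was -0.37 without Fed 5 and Fasted 2. Fam151a with Pde6a gave r = 0.67 (exact permutation p = 0.0424, adjusted 0.297). Spc25, the least variable of the fed levels, was in none of the pairs with an unadjusted p under 0.05.

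**Figure D5:**
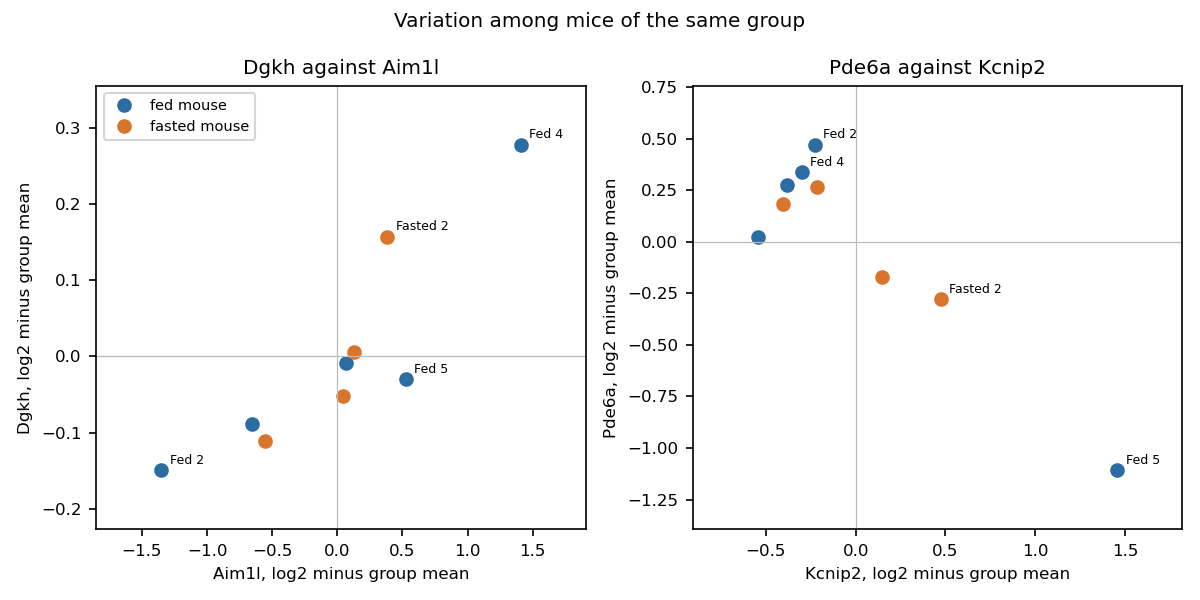
Group-centred log2(normalized count + 1) of pairs of genes in the 9 mice, 1 point per mouse, fed and fasted in different colours. The relation of Kcnip2 with Pde6a (r = -0.92) is drawn out by Fed 5, and in that of Aim1l with Dgkh (r = 0.88) Fed 2 and Fed 4 lie at the ends.

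The genes whose pattern over all 9 libraries was most like each of the 7 were also listed, by Pearson r of log2(normalized count + 1) among genes with a mean of at least 50. Both groups enter this r, so it is given with no p. They were Tacc1 (0.995) and 2410006H16Rik (0.990) for Kcnip2, Irf8 (0.965) and Abca5 (0.964) for Aim1l, and Pan3 (0.987) and Large (0.983) for Spc25. For Dgkh they were Abhd15 (0.984) and Cpt2 (0.983), the latter an enzyme of mitochondrial fatty acid import. Pde6a was most like Piezo2 (0.986) and Manba (0.979), Igf2bp1 most like Pde6d (0.980) and Usp24 (0.976), and Fam151a most like Olfm3 (0.986) and Mgat3 (0.986). Among the 6 most alike of each, Hsdl2 stood for both Spc25 (0.976) and Dgkh (0.980).

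The authors' deposited table of the same comparison gives smaller log2 fold changes, pulled towards 0, most of all for the 2 genes with the widest spread among fed mice. In the authors' deposited table the values were 1.09 (SE 0.22) for Kcnip2, 0.96 (SE 0.22) for Aim1l, 1.05 (SE 0.09) for Spc25 and 1.13 (SE 0.10) for Dgkh. For the lower genes the authors' deposited table has -1.29 (SE 0.19) for Pde6a, -1.16 (SE 0.18) for Igf2bp1 and -1.22 (SE 0.16) for Fam151a. The authors annotated with functional terms their list of changed genes, 1281 beside the 23420 genes of the deposited table. All 7 were in that list, from which nothing can be read, since the same comparison chose them. In the authors' deposited table of 705 terms, 120 had a Benjamini value under 0.05. The 1 term that held 3 of the genes was "membrane" (Kcnip2, Pde6a and Fam151a), with a fold of 1.27. It is a broad term, with 477 of 1222 listed genes and 5507 of 17854 background genes, so nothing is read from the 3 of 7. Aim1l was in no term, and the terms of Dgkh under that value, 3 of its 19, were of glycerol ether, organic ether and neutral lipid metabolism.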

How the data were processed

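TRIzol was used for extraction and TruSeq for the libraries, per the labels' protocols. FastQC, TopHat2 2.0.9, HTSeq 0.9.1 and DESeq2 (version given as 3.5), with builds mm10 and hg19, are named per the submitters' processing notes; the annotation and strand setting are not given in the sources used here. The deposited signal is a gene's reads over its library's size factor, as scaled by the authors. Dividing by the smallest step of each library turned all 161194 values above 0 into whole reads (tolerance 0.01), which served for the count tools. The log2 fold changes, score (log2 fold change over its standard error) and p-values of the authors' table are the authors' own, as is the fold enrichment in the deposited term table.

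Tests across genes used limma 3.58.1 with trend (R 4.3.3) on log2(normalized count + 1), in 1 fit of 9 libraries over the 15098 genes with a mean of at least 10, two-sided, with Benjamini-Hochberg adjustment and a threshold of 0.05. Pairs of genes were tested over mice by exact permutation within groups. A log2 difference on this scale understates the change of low genes. edgeR 4.0.16 (quasi-likelihood) and DESeq2 1.42.0 on the recovered reads, other filters, pseudocounts and scalings, and leaving out libraries were alternatives. Ranges of adjusted p over the alternatives take in limma, edgeR and DESeq2 values alike. The fit was tested on simulated data. The 7 genes and all lists were chosen with earlier results of these data known. Named outside the 7 were up to 4 genes per list with the smallest adjusted p among those past the threshold, set relatives, genomic neighbours, and the 2 genes most like each; genes named beyond these (such as Dgkz, Plcb1, Plcb4, Cds2, Mki67, Hsdl2, Cryba1, Crybb3 and single cell type markers) were chosen after their values were seen. Genes were matched to GENCODE M21 (14459 of 15098 by Ensembl identifier) for positions and exon unions, and to RefSeq (15013) for neighbours and promoters. The values of 1 fasting gene, and of the mean that includes it, are not reported here.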

Additional observations from a re-analysis of the deposited data

Results flagged for a closer look

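In 108 groups of libraries (each named gene in the fed and in the fasted mice), 12 held a library far from the others by Dixon's criterion, which chance alone meets in about 1 group in 20. One concerned the 7 genes: Kcnip2 was at 257 normalized counts in Fed 5, against 63.3 to 79.2 in the other fed mice. Fed 5 also stood apart for genes listed with Kcnip2, with Kcnip4 at 107 (others 60.5 to 68.7) and Kcnab2 at 69.6 (others 139.9 to 150.1). It did so too for Cds2 at 4821 (others 4213 to 4309.5). Kcnab2 was also high in Fasted 4, at 77.4 (others 56.6 to 59.5). Among partners of the other genes, Igf2bp2 was high in Fed 3 at 269.7 (others 168 to 197), Gnat1 in Fasted 2 at 108 (others 48.9 to 56.7), and Pde6d low in Fasted 4 at 177 (others 203 to 207). Mcm6 was high in Fasted 3 at 641 (others 499 to 509), as was Slc13a3 in the same mouse at 23847 (others 19190 to 19870). Of the genomic neighbours, Abcb11, 32069 bases from Spc25, was at 218 in Fed 2 (others 2.23 to 44.7). In that library the hepatocyte marker Alb was at 10091 (other fed mice 251 to 4321). The part of hepatocyte RNA in this was not tested. Mgea5, 8702 bases from Kcnip2, was low in Fasted 4 at 4321 (others 4564 to 4592).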

How the results depend on the processing

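The log2 differences of all 7 genes kept their sign and moved by less than the spread between mice in all 19 alternatives; leaving out 1 library moved Kcnip2 between 2.38 and 2.90, Aim1l between 2.29 and 2.98, and Pde6a between -1.92 and -1.52. The number of genes passing, 1656, depended on which mouse was left out: without 1 library it ran from 861 (without Fasted 4) to 1959 (without Fed 5), and it was 1068 without the 2 libraries highest in Rn45s. The cause was not tested. It was 1655 with edgeR and 2349 with DESeq2. Of 123 partner genes 14 to 28 passed, and 14 to 25 without 1 library. Of 47 named partner and neighbour genes, 14 changed their call in at least 1 alternative and none reversed a call. The 1 pair of genes that varied together among mice of a group became 0 pairs without the 2 mice farthest out, where the smallest adjusted p a single pair could reach was 0.194, and 1 pair passed with a pseudocount of 5 or median centring. No paired analysis was possible because the labels give no replicate numbers shared between fed and fasted mice. Depth limits Dgki, Ndc80, Nuf2 and Pde6b, which rest on few reads per library, and the genes below the minimum mean.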
